A study of Mus musculus with 18 samples.

Results

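The calls described here are single-base C to T changes, read as C>T or G>A on the reference strand, that were listed in exactly 1 of 17 mouse leukemias and were not marked as known variants by the authors' database column. The rule on database mark, number of leukemias and base change took 637 of the 2653 deposited calls analysed here, and left 421 unmarked private single-base changes of other kinds as the nearest comparison. The DNA came from leukemias of C57Bl6-NIH mice that carried the NP23 (NUP98-PHF23) and NHD13 (NUP98-HOXD13) transgenes together, 11 sampled from the thymus and 6 from the bone marrow, each from a separate mouse and all, bone marrow included, with the disease label thymic AML (acute myeloid leukemia). Exomes, the protein-coding part of the genome, were captured and sequenced, and every call was made with MuTect2 against the tail DNA of 1 wild-type C57Bl6-NIH mouse, so inherited and acquired changes cannot be told apart. No leukemia was free of either transgene, and ages and the promoters driving the transgenes were not given in the sources used here. Mouse numbers fell into 8 plain numbers (6 thymus, 2 bone marrow) and 9 with the ending NN (5 thymus, 4 bone marrow). The labels do not say what the ending stands for. The thymus leukemia M31 stands apart: of 685 database-marked calls in all, it held 359 on chromosome 1 and 211 on chromosome 19, and its part of the calls at 0.10 and above is given separately. DNA calls hold no expression, so the tissue labels could not be checked by marker genes.

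A C to T change is the product left when a cytosine loses its amino group and is copied as thymine, and it appears as G to A when the cytosine lies on the other strand. Methylated cytosines in CpG pairs, where a guanine follows the cytosine, are known to be deaminated readily, and arginine codons beginning with CG are therefore frequent places of such changes. Enzymes of the AID and APOBEC families also deaminate cytosines in single-stranded DNA, with preferences for the base before the cytosine.

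For 8 of the 637 changes a RefSeq promoter window (build GRCm38.p6) held the surrounding bases, and the reference base of the table matched the window at all 8. They are shown because they give the neighbours of the changed base directly, in 7 windows that hold at least 10 bases on either side. Each line reads 5′ to 3′ on the strand where the changed base is C, which is the capital letter. The Gm51823, Cfap61 and Gm51557 lines carry the name of the promoter window. In the deposited table the call on the Cfap61 line is intronic in Crnkl1. The call on the Gm51823 line is given as upstream or downstream of Mir6916, and that on the Gm51557 line of 9330133O14Rik.
Htr6, M19, chr4:139074792-139074812, plus strand: atggtgaatgCggatacaggg
Gm11487, M22, chr4:73405023-73405043, plus strand: caagagtctgCggtgcaagga
Gm51823, M22, chr10:128512231-128512251, plus strand: gaggtttgagCcgggcagcat
Cfap61, M23, chr2:145934538-145934558, minus strand: ccaaggtaggCgaccgggagg
Thg1l, M23, chr11:45955371-45955391, plus strand: ttggccatggCcacccccaat
Gm51557, M24, chr8:122439546-122439566, plus strand: agtggccttgCcagttggcag
Tom1, M59, chr8:75033713-75033733, plus strand: tcggcggcgcCggcggttgct
The changed C followed a G in 7 of the 8, including a 5′ UTR change of Cep97 in M21 that lies at the edge of its window. Tom1, the exception, was also the one from an NN mouse, with an allele fraction of 0.281 (9 of 40 reads), where the others ran from 0.023 (Gm11487, 7 of 222 reads) to 0.105 (Cep97, 6 of 55 reads). Only the Thg1l change altered a protein (A29T in the first exon of this tRNA-modifying enzyme, 3 of 63 reads). Over all 32815 windows, read on both strands, 27.7% of cytosines followed a guanine, and of 4 database-marked C to T sites in windows 1 did.

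The calls were spread very unevenly over the leukemias. There were 112 in M19, 109 in M18, 104 in M31, 99 in M22, 58 in M24, 47 in M23, 30 in M21 and 24 in M20, all mice with plain numbers. In the NN mice there were 10 in M55, 8 each in M56, M57 and M59, 6 in M58, 5 in M54 and 3 each in M53, M60 and M61. The lowest plain mouse thus had more than the highest NN mouse, and the plain mice held 583 of the 637. The other unmarked private single-base changes were also more numerous in plain mice, with a mean of 38.6 (9 to 102) against 12.4 in NN mice (6 to 12, and 39 in M59).

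**Figure D1:**
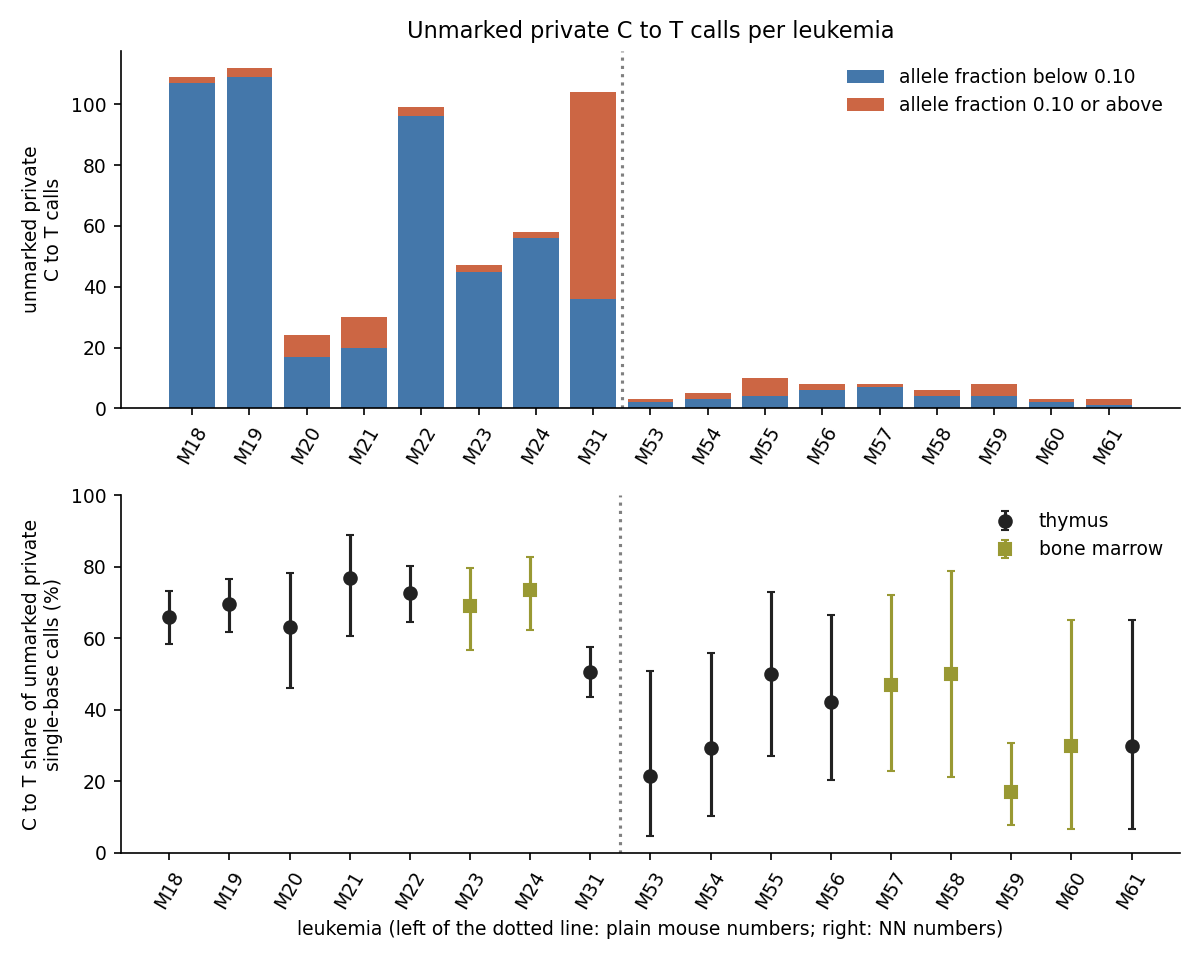
Upper panel, number of unmarked private C to T calls in each of the 17 leukemias, divided at a caller allele fraction of 0.10; lower panel, their share (%) of all unmarked private single-base calls of that leukemia, with 95% Clopper-Pearson intervals. Plain mice hold 24 to 112 calls and NN mice 3 to 10, and the shares of the series, 50.5 to 76.9% and 17.0 to 50%, do not overlap.

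Measured as a share of all unmarked private single-base changes, C to T made up 66.1% in M18, 69.6% in M19, 63.2% in M20, 76.9% in M21, 72.8% in M22, 69.1% in M23, 73.4% in M24 and 50.5% in M31. In the NN mice the lowest share was 17.0% (M59), the median 30% and the highest 50% (M55 and M58). The mean was 67.7 ± 8.18% (SD, n = 8) in plain and 35.2 ± 12.4% (SD, n = 9) in NN mice, a difference of 32.5 percentage points (p = 4.11e-05, exact two-sided permutation test over leukemias). This comparison was added after the data were seen, and the series is a mouse-number label, not a treatment. Among calls with an allele fraction below 0.10 the difference was 37.4 points (72.4 against 35.0%, p = 0.00074, exact permutation test). At 0.10 and above it was 5.30 points (49.1 against 43.8%, p = 0.52, exact permutation test), and whether the 2 differences differ was not tested. The undivided NN shares rest on 10 to 47 changes per leukemia. Below 0.10 the NN shares rest on 5 (M58 and M61) to 41 (M59) changes. They ran there from 9.76% (M59) to 80% (M58) and overlapped the plain shares of 65.4 to 87.0%. At 0.10 and above the shares rest on 2 (M57) to 10 (M55) changes in NN mice. In plain mice they rest there on 4 (M22) to 16 (M21) changes, and on 152 in M31. Depth at these sites overlapped between the series, with a median of 74 to 152 reads in plain and 47 to 264 in NN mice. The NN medians rest on 3 to 10 calls each. Pooled over the C to T calls below 0.10, median depth was 133 reads in plain and 98 in NN mice. The part of depth in the series difference was not tested.

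Tissue of origin was compared next. The mean number of these calls was 46.1 ± 48.3 in thymus (SD, n = 11) and 21.7 ± 24.2 in bone marrow (SD, n = 6), a difference below the SD of the thymus group and about that of the bone marrow group (p = 0.256, exact two-sided permutation test). The difference was 27.2 within plain and -0.45 within NN mice. The C to T share was 52.0 ± 19.3% in thymus and 47.8 ± 21.8% in bone marrow (p = 0.679, exact permutation test), while within the series the thymus minus bone marrow difference was -4.77 points in plain and -1.43 points in NN mice. The share of calls below an allele fraction of 0.10 averaged 67.2 ± 24.1% in thymus and 77.2 ± 18.9% in bone marrow (p = 0.395, exact permutation test), and differed by -18.7 points within plain and -12.7 points within NN mice. No difference between the series in these tissue differences was detected (p = 0.408, 0.756 and 0.808, exact permutation of tissue within series), with 2 plain bone marrow leukemias to base it on.

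Most of these changes stood in few reads. The allele fraction, the caller's estimate of the share of DNA with the change, had a median of 0.035 and ran from 0.00982 to 0.778, and 519 of the 637 lay below 0.10. Below 0.10 the alternative base was seen in 2 to 12 reads at a median depth of 130 reads, and 441 of the 519 calls (85.0%, 95% Clopper-Pearson interval 81.6 to 87.9) had 3 to 5 such reads. Their tumor score, the caller's log odds that the change is real, began at 6.3 and had a median of 6.87. At 0.10 and above the median was 0.267. The nearest calls to the boundary were Cdh4 G309D in M18 at 0.097 below it, and a synonymous Rcn2 change in M20 at 0.1 and an intronic Lrp1 change in M22 at 0.103 above it. In the wild-type tail 45 of the 637 sites had a read with the alternative base, 1 read in each case, at a median wild-type depth of 52 reads over all 637. Of the 118 calls at 0.10 and above, M31 held 68. M21 had 10, M20 7, M55 6, M59 4, and the other 12 leukemias 1 to 3 each.

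In M31 many of the calls at 0.10 and above stood near database-marked ones. Within 1 Mb of a database-marked call of the same leukemia lay 35 of those 68. The other leukemias had few marked calls to be near. Over all leukemias, 35 of the 118 C to T calls at 0.10 and above lay that near (29.7%), beside 69 of the 138 other base changes (50%). The latter were not counted for M31 alone. Of the 68, chromosome 1 held 19 and chromosome 19 held 13. Examples on chromosome 1 were Mterf4 S156N (70 of 184 reads), in a regulator of mitochondrial translation, and Xpr1 E500K (16 of 36 reads), in a phosphate exporter. Whether these are inherited stretches was not tested.

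In proteins, the calls were mainly missense. Of 637, 317 were missense (49.8%), 125 synonymous (19.6%), 94 intronic, 31 intergenic, 29 upstream or downstream of a gene, 20 in untranslated regions, 16 stop gains, 4 in other noncoding positions and 1 at an essential splice site. Protein-altering calls were 291 of 519 below 0.10 (56.1%, interval 51.7 to 60.4) and 43 of 118 at 0.10 and above (36.4%, interval 27.8 to 45.8), 24 of 68 in M31 and 19 of 50 elsewhere. Compared within the 7 leukemias with at least 3 calls in each class, the share was 46.2% below and 39.7% at or above the boundary, a difference of 6.42 points that was positive in 3 and negative in 4 (adjusted p = 0.734, exact sign-flip permutation test, Benjamini-Hochberg over 3 tests). The pooled shares thus differed while 4 of the 7 leukemias went the other way. Intervals are limited to counting error, because PCR copies of a molecule may be counted as separate reads and calls of a leukemia share a library.

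Against the 421 other unmarked private single-base changes, the protein-altering share was 44.3% for C to T and 45.4% for the others, averaged over 17 leukemias, and higher for C to T in 12 of them and lower in 4 (adjusted p = 0.897, exact sign-flip permutation test, Benjamini-Hochberg over 2 tests). Within the 8 plain mice C to T was the more often protein-altering, 51.8 against 43.9%, in 7 of 8 (adjusted p = 0.0391, exact sign-flip permutation test). Within the 9 NN mice it was 37.6 against 46.7% (adjusted p = 0.461, exact sign-flip permutation test). The median allele fraction per leukemia averaged 0.0718 for C to T and 0.0736 for the others (adjusted p = 0.897, exact sign-flip permutation test). In the plain mice it was 0.0584 against 0.0969, lower for C to T in 7 of 8 (adjusted p = 0.0313, exact sign-flip permutation test), and in the NN mice 0.0837 against 0.0529, higher in 6 of 9 (adjusted p = 0.461, exact sign-flip permutation test). Among the plain mice the gap was widest in M21 (0.049 against 0.222, the latter over 9 calls) and M31 (0.2 against 0.2885), and small in the rest. The design set these comparisons over all 17 leukemias. Values for 1 series were among several alternative settings, and p was adjusted only over the 2 tests within a setting. Whether the series differ in these values was not tested.

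Alanine was the amino acid most often lost. The 333 missense and stop-gained calls took away alanine in 132 (39.6%), arginine in 63 (18.9%), glycine in 43 (12.9%) and proline in 36 (10.8%). The commonest changes were alanine to valine (73 calls in 11 leukemias), alanine to threonine (59 in 9), glycine to aspartate (38 in 9), proline to serine (33 in 8) and arginine to histidine (25 in 8). What was gained followed from these, with valine gained in 73, threonine in 59 and aspartate in 38. In an alanine codon (GCN) the change to valine is C to T at the second base on the transcript strand, and the change to threonine is C to T opposite the first base. Among the 421 other changes alanine made up 4.7% of the amino acids lost and arginine 6.4%. By the genetic code, other base changes reach other residues, so the 2 kinds of call are not matched in this respect. C to T sites outside the rule lost alanine about as often: 15 of 42 amino acid changes at database-marked sites (35.7%, interval 21.6 to 52.0) and 7 of 18 at unmarked sites of several leukemias (38.9%, interval 17.3 to 64.3). Arginine made up 14.3% and 16.7% there.

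**Figure D2:**
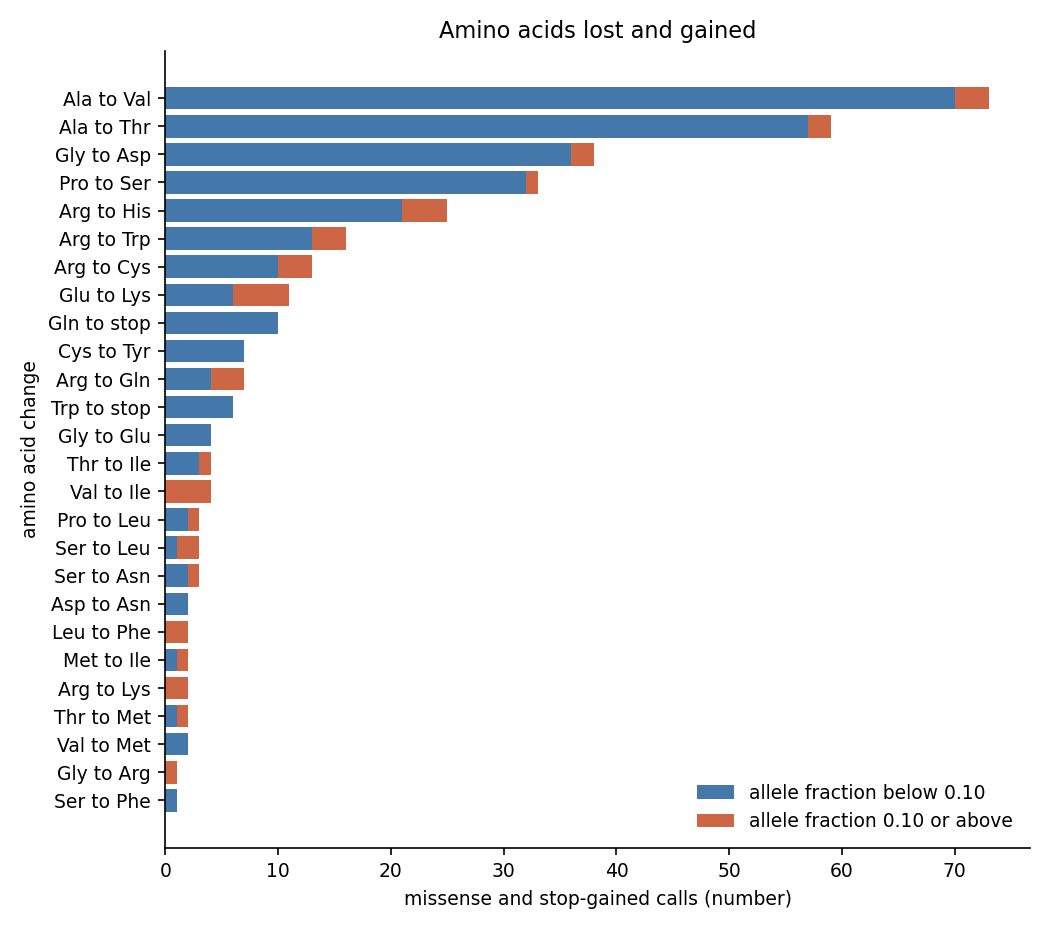
Number of missense and stop-gained calls (x axis) for each amino acid change (y axis), divided at a caller allele fraction of 0.10. Alanine to valine (73) and alanine to threonine (59) lead, with 70 and 57 below 0.10, and valine to isoleucine has all 4 of its calls at 0.10 or above.

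Pooled over leukemias, the amino acids lost were distributed differently below and above the boundary, with intervals for counting error. Alanine was lost in 127 of 291 calls below 0.10 (43.6%, interval 37.9 to 49.6) and in 5 of 42 at 0.10 and above (11.9%, interval 3.98 to 25.6), 4 of 24 in M31 and 1 of 18 elsewhere. Arginine went the other way, with 48 of 291 below (16.5%, interval 12.4 to 21.3) and 15 of 42 at or above (35.7%, interval 21.6 to 52.0). Of those 15, M31 gave 6 of its 24 amino acid changes, and the other leukemias together 9 of 18. Glutamate to lysine, 6 below and 5 above, and valine to isoleucine, 0 below and 4 above (all in M31), were also proportionally more frequent above. Only M21 and M31 had 3 or more amino acid changes in each class. In these 2 the arginine share was 33.7 points lower below 0.10, and the smallest p that 2 leukemias allow is 0.5 (adjusted p = 0.734, exact sign-flip permutation test). Taking every leukemia with at least 1 call in each class, the difference was -18.8 points over 9 leukemias (adjusted p = 0.469, exact sign-flip permutation test), with the share higher below 0.10 in 3 and lower in 5.

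Arginine losses were to histidine (25), tryptophan (16), cysteine (13), glutamine (7) and lysine (2). M18 had 14, M22 10, M19 9, M31 8, M21 and M24 6 each, M20 and M23 3 each, and the NN mice 4 in all, in M55, M58, M59 and M61. Low-fraction examples were Gli1 R383H in M18, in a transcription factor of Hedgehog signalling (3 of 160 reads), and Nr3c2 R857W in M19, in the mineralocorticoid receptor (5 of 156 reads, with 1 alternative read in the wild-type tail). Both were chosen as examples after their values were seen.

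The bases beside the changed cytosine were read from the genetic code where every codon giving the observed change has the same neighbour, since no genome was used here. An alanine codon, for instance, puts a guanine before the changed cytosine in both of its missense outcomes, and a proline to leucine change never does. Below 0.10 the code fixed the preceding base in 199 calls, and it was guanine in 162 (81.4%, interval 75.3 to 86.6). At 0.10 and above it was guanine in 8 of 40 (20%, interval 9.05 to 35.6), 4 of 26 in M31 and 4 of 14 elsewhere. The 162 were 70 alanine to valine, 57 alanine to threonine, 20 synonymous cysteine and 15 synonymous glycine calls, so this reading largely restates the alanine losses. Calls whose neighbour the code fixes are not a sample of all cytosines, and their share is set beside other C to T calls read in the same way. It was 26 of 89 for database-marked C to T sites (29.2%), of which fewer were protein-altering (42 of 262), so the codons read are not matched, and 7 of 18 for unmarked sites listed in several leukemias. The synonymous cysteine and glycine calls lie at the last base of TGC and GGC codons, directly after a guanine.

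**Figure D3:**
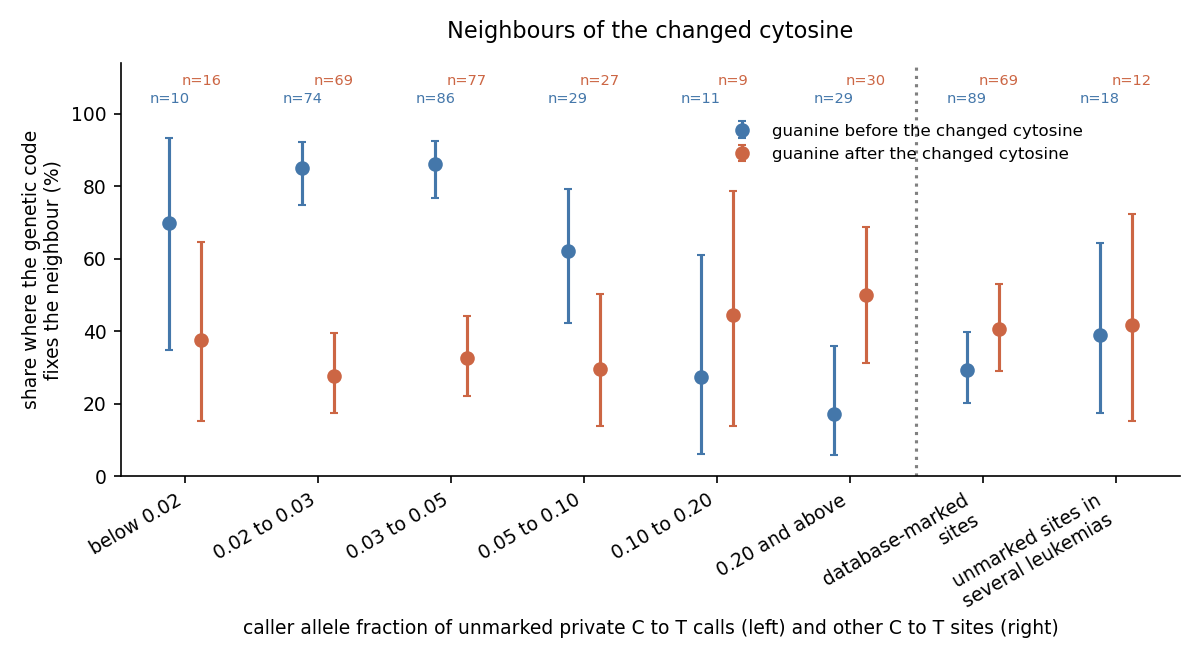
Share (%) of C to T calls with a guanine before (blue) or after (orange) the changed cytosine, where the genetic code fixes that neighbour, by caller allele fraction, with database-marked sites and unmarked sites of several leukemias on the right; bars are 95% Clopper-Pearson intervals. The share with a preceding guanine is 85.1% at 0.02 to 0.03 and 86.0% at 0.03 to 0.05, 62.1% at 0.05 to 0.10, and 17.2% at 0.20 and above.

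By allele fraction, a guanine came first in 7 of 10 calls below 0.02, 63 of 74 from 0.02 to 0.03, 74 of 86 from 0.03 to 0.05, 18 of 29 from 0.05 to 0.10, 3 of 11 from 0.10 to 0.20 and 5 of 29 above. Median depth also differed between these ranges, at 346 reads in the lowest, 38 from 0.10 to 0.20 and 52 above, and its part in the pattern was not tested. Below 0.10 each plain mouse had a majority: 28 of 36 in M18, 49 of 54 in M19, 5 of 6 in M20, 5 of 6 in M21, 31 of 35 in M22, 9 of 13 in M23, 20 of 22 in M24 and 8 of 12 in M31. In the NN mice together it was 7 of 15. Without M18, M19 and M22 the share below 0.10 was 73.0%. Only M20 and M31 had 3 calls in each allele fraction class, with a mean difference of 17.3 points, positive in M31 and negative in M20 (p = 1, exact sign-flip permutation test). With 1 in each class as the minimum, the share was 40.7 points higher below 0.10 over 8 leukemias, higher in 5 and lower in 1 (p = 0.0625, exact sign-flip permutation test). This reading was added after the data were seen.

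A guanine after the cytosine, the CpG context, was found in 58 of 189 calls below 0.10 where the code fixes it (30.7%) and in 19 of 39 at 0.10 and above (48.7%). The latter were 8 of 21 in M31 (38.1%) and 11 of 18 elsewhere (61.1%). With the narrower list of changes set in the design it was 49 of 150 (32.7%) and 14 of 23 (60.9%), the latter 5 of 11 in M31 and 9 of 12 elsewhere. M21 and M31, the leukemias with enough calls, had 31.1 points less below 0.10 (adjusted p = 0.734, exact sign-flip permutation test, smallest possible raw p 0.5). With 1 call per class the difference was -13.8 points over 7 leukemias, higher in 2 and lower in 5 (adjusted p = 0.594, exact sign-flip permutation test), and with a boundary of 0.05 it was -18.3 points over 6, higher in 3 and lower in 3. Database-marked sites had 40.6%.

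Neither strand was in clear excess. Relative to the gene, 298 of 576 calls within transcripts had the C on the transcript strand (51.7%), and 278 had G. Over 13 leukemias with at least 5 such calls the share was 56%, which is 5.99 points above 50%, with 6 leukemias above and 3 below (p = 0.215, exact sign-flip permutation test). Summed over calls, the read pairs carrying the change were also balanced. In F1R2 pairs, those whose first read lies on the forward strand, stood 1011 of 2181 alternative reads at genomic C sites (46.4%) and 948 of 2021 at genomic G sites (46.9%), beside 47.2% and 46.8% of the reference reads at the same sites. The difference between C and G sites was -0.53 points over 13 leukemias, positive in 7 and negative in 6 (p = 0.838, exact sign-flip permutation test), and the authors' own orientation fraction had a median of 0.5. Sums do not show how single calls were divided. All alternative reads had the same orientation in 115 of 514 calls below 0.10 with at least 3 reads (22.4%, interval 18.8 to 26.2). For the other base changes it was 46 of 275 such calls (16.7%, interval 12.5 to 21.7), a difference that was not tested. The share that chance would give at these low read counts was not computed, so balance within calls is not shown.

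Stop gains were found in 16 calls, all with allele fractions of 0.058 or less, and 0 of 118 at 0.10 and above (upper Clopper-Pearson limit 3.08%). The other unmarked private changes were alike in this, with 7 stop gains among 171 amino acid changes (4.09%, beside 4.80% here), all below 0.10, and 0 of 138 at 0.10 and above. Glutamine became a stop in 10 and tryptophan in 6, and 0 of the 63 arginine losses was to a stop. In M19 they were Adgrl2 Q938*, an adhesion receptor (5 of 74 reads), Clec1b Q2*, a platelet receptor (4 of 141), Ctnnbl1 Q453*, a spliceosome-associated protein (3 of 165), Gabrg3 W397*, a GABA receptor subunit (3 of 159), and Mad1l1 Q525*, a spindle checkpoint protein (6 of 617, 0.972%). M18 had Camkk2 Q157*, a calcium-dependent kinase (3 of 166), Itgb1 Q257*, the integrin beta chain of many adhesion receptors (4 of 160), and Mrc2 W526*, a collagen receptor (5 of 112). M23 had Ttll4 Q744*, which adds glutamate to tubulin (5 of 96), Fcrla Q114*, an Fc receptor relative (2 of 99), and Oas2 W691*, an antiviral enzyme (4 of 73). The remaining 5 were single in their leukemias: Fam71a W481* in M20 (3 of 138), the potassium channel subunit Kcnv2 Q294* in M22 (4 of 131), Trappc10 W123*, a trafficking factor, in M24 (4 of 128), Pde4d Q186*, a cyclic AMP phosphodiesterase, in M31 (4 of 162), and Zfp810 W18* in M56 (5 of 157). Adgrl2 had the highest read share, 6.76% with an interval of 2.23 to 15.1. At the Pde4d site the wild-type tail also had 1 alternative read of 58. No gene had a stop gain in more than 1 leukemia.

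Itgb1 Q257* lies in exon 6 of 16 on chromosome 8 at position 128714148, and Clec1b Q2* in the first of 6 exons on chromosome 6 at 129397618, right after the start codon. Oas2 W691* is in exon 10 of 11, near the end of a protein of 742 residues. All but Gabrg3 W397*, in the last of 10 exons, and Fam71a W481*, in a single-exon gene, lay before the last exon.

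Protein-altering calls at 0.10 and above with at least 20 reads and no marked call within 1 Mb numbered 29 of 43. M31 held 12 of them. Among chromatin regulators, Brpf1 E827K in M19, in a scaffold of MYST histone acetyltransferases, stood in 38 of 80 reads (47.5%, interval 36.2 to 59), in exon 8 of 13 on chromosome 6 at 113319226. Kmt2a T1311I in M31 (6 of 22 reads, 27.3%, interval 10.7 to 50.2) and Kmt2b R1308C in M21 (5 of 30 reads, 16.7%, interval 5.64 to 34.7) lie in histone H3 lysine methyltransferases and rest on few reads. Cbl R557K in M59, in a ubiquitin ligase that turns off receptor tyrosine kinases, stood in 53 of 125 reads (42.4%, interval 33.6 to 51.6), in exon 11 of 16 on chromosome 9 at 44158779.

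**Figure D4:**
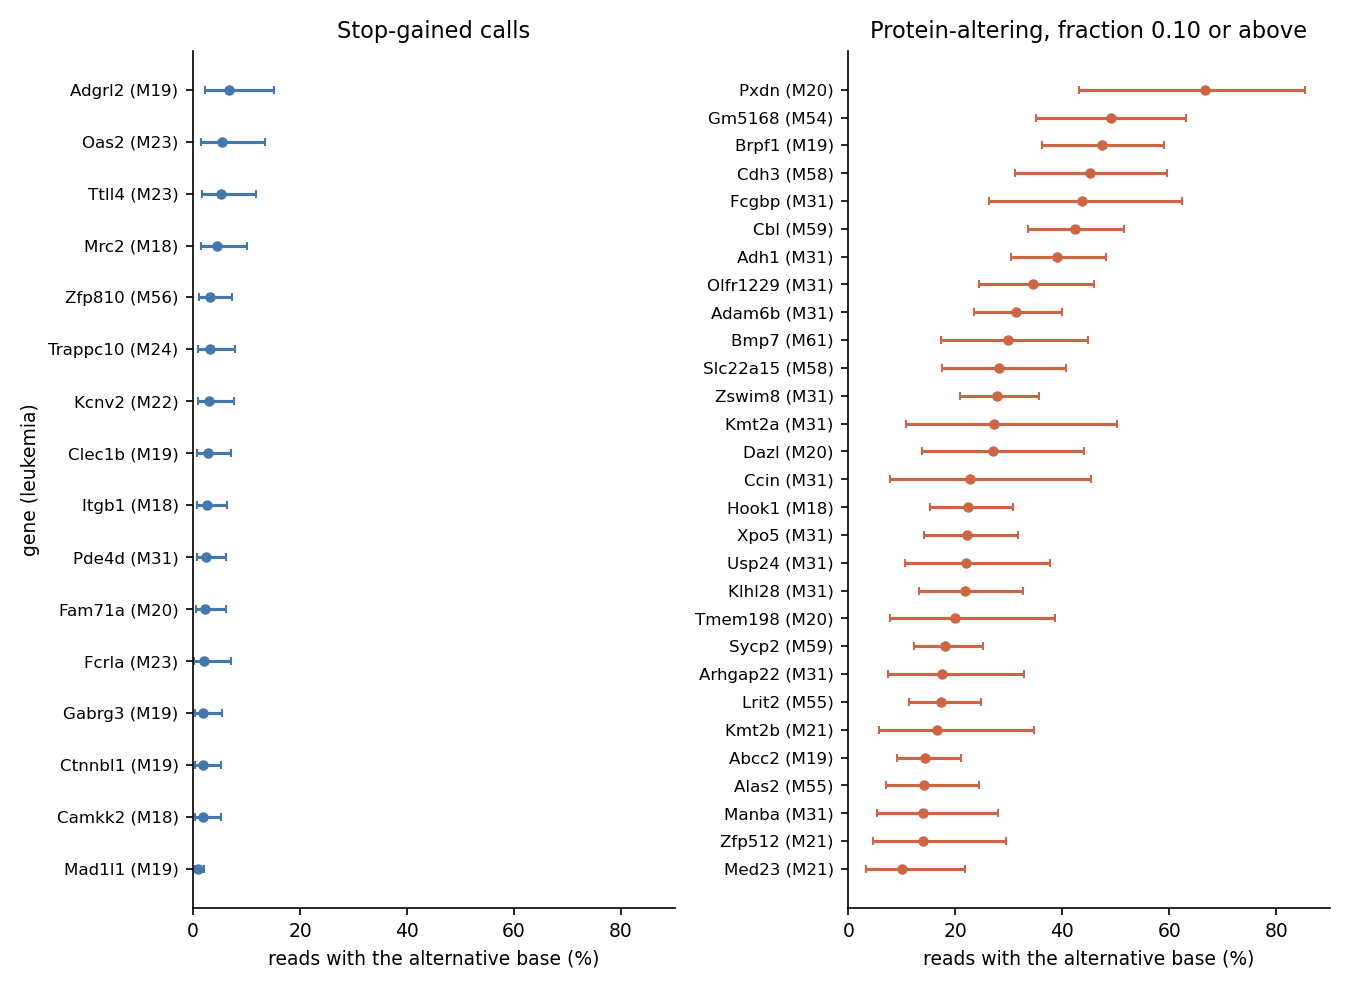
Share of reads with the alternative base (x axis, %) for the 16 stop-gained calls (left) and the 29 of 43 protein-altering calls at a caller allele fraction of 0.10 or above that had at least 20 reads and no marked call within 1 Mb (right), each named by gene and leukemia, with 95% Clopper-Pearson intervals. Stop gains run from 0.972% (Mad1l1) to 6.76% (Adgrl2), and the other group from 10% (Med23) to 66.7% (Pxdn).

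The highest read share was that of Pxdn R958C in M20 (14 of 21 reads, 66.7%, interval 43.0 to 85.4), in a peroxidase that cross-links collagen. Gm5168 E49K in M54 had 26 of 53, Cdh3 P538L in M58, in P-cadherin, 23 of 51, and Fcgbp R1993W in M31 14 of 32. Enzymes and transporters followed: Adh1 E126K in M31, an alcohol dehydrogenase, had 48 of 123 reads, Slc22a15 G204D in M58 18 of 64, Abcc2 T1257M in M19 21 of 147, and Alas2 E183K in M55, the first enzyme of heme synthesis in red cells, 10 of 71. Bmp7 R266W in M61, a secreted growth factor, had 14 of 47. The single splice site change, in intron 2 of the germ cell gene Dazl in M20, had 10 of 37. Others were Hook1 R272H in M18 (27 of 121), Xpo5 A688V in M31, which exports microRNA precursors (21 of 95), Sycp2 S1312L in M59 (27 of 150), Usp24 R678Q in M31 (9 of 41) and Med23 A356V in M21, a Mediator subunit (5 of 50). The wild-type depth was 12 reads at Usp24 and 13 at Kmt2a, which limits how well a change shared with the wild-type mouse could be seen there.

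The protein-altering calls fell in 325 genes, and 8 of these were hit in more than 1 leukemia. No such count was made for the other base changes, and gene length was not taken into account. Whether 8 is more than chance would give was not tested. Ttn, which encodes the giant muscle protein titin and offers a very long coding sequence, was hit in M18 (A15113V), M22 (P12102S) and M24 (A16443V), at allele fractions of 0.028 to 0.059. Hit in 2 leukemias each were Cbs (A96V in M20, G532D in M22), the enzyme joining homocysteine and serine, Fbn1 (G2256E in M19, C625Y in M31), which forms microfibrils, P4ha3 (R140W in M19, S388N in M22), which hydroxylates collagen, Ttll4 (Q744* in M23, R120H in M24), Hecw2, Kmt2b and Map1b. Kmt2b R1308C in M21, at 0.15, was the only call of these genes at 0.10 or above, beside Kmt2b R2686H in M22 at 0.034. Map1b, a microtubule-binding protein, had A478T in M19 and A2331T in M21, and Hecw2, a ubiquitin ligase, P688S in M22 and G1458D in M24.

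Of 13 gene lists, 8 held no call: JAK-STAT and cytokine receptors, DNA methylation, hematopoietic transcription factors, cohesin, RNA splicing, NOTCH, HOX and MEIS partners, and cytosine deamination and its repair. The 421 other changes were about as rare there. The hematopoietic transcription factor and RNA splicing lists held 0.238% of them each, and the rest of these 8 lists 0%. Rows not analysed here are not covered by these counts. The chromatin regulator list (36 genes) held 7 of the 637 calls (1.10%), beside 0.238% of the 421 other changes, which is 1 call. Both shares thus rest on few calls. Of the 7 calls, 3 were at 0.10 or above and 6 were protein-altering, in 5 genes and 4 leukemias. Besides Brpf1, Kmt2a and the Kmt2b calls, these were Ncor1 P1203S in M19 (4 of 99 reads), in a corepressor, Kmt2d A5487T in M19 (5 of 263), and a synonymous Kmt2d change in M22 (4 of 115). The RAS and receptor tyrosine kinase list (26 genes) held 2 (0.314%, beside 0.238% of the other changes), in the same leukemia: Cbl R557K, and Ptpn11 A72V in M59 (4 of 77 reads, 5.19%, interval 1.43 to 12.8), in the phosphatase SHP2, at a residue known for activating changes in human leukemia. The tumor suppressor list held an intronic Trp53 call in M19 (4 of 59), and the nucleoporin list a call beside Nup62 in M21 (3 of 76, with 1 alternative read in the wild-type tail). Each is 0.157% of the 637 calls, beside 0% of the other changes. Olfactory and vomeronasal receptors, a very large family of sensory receptors, held 25 calls (3.92%), 17 protein-altering and 4 at 0.10 or above, a share close to the 4.04% among the other changes. No list was tested.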

How the data were processed

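Exomes of 17 leukemias and 1 wild-type tail were sequenced, and somatic calls were made with MuTect2, per the labels. The submitters' processing notes also name bcl2fastq 2.17.1.14, BWA 0.7.17, GATK and the builds mm10 and GRCm38, to which all coordinates refer. The authors deposited 1 filtered table of calls with read counts per allele and orientation, the caller's allele fraction as a fraction, and its tumor log odds as a score. The same wild-type mouse served for every leukemia, and 30 columns of per-sample values were not used.

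Calls were kept by the rule, and their median depth was 119 reads (6 to 691). Shares were taken per leukemia, so the leukemia is the replicate. Groups were compared with exact two-sided permutation tests and paired shares with exact two-sided sign-flip tests, requiring 3 calls in each class. Benjamini-Hochberg adjustment was made within families of 3 and 2 tests. Shares of pooled calls have Clopper-Pearson intervals at 95%. Python 3.11.15 and scipy 1.17.1 were used. No genome was used, so neighbouring bases, planned from a genome, were read from codons. In simulated codons this step was right in all 2851 preceding and 2755 following bases that it fixed. The simulation used the same genetic code, so it checks the reading step only, not the deposited positions or transcripts. Genes were named if a call was a stop gain, was protein-altering at 0.10 or above with 20 reads and no marked call within 1 Mb, recurred in 2 leukemias, or stood in 13 gene lists. Members, lists and tests were chosen with earlier results of these data known. The plain and NN comparison and the preceding base were added later. Alternatives changed the depth minimum, the boundary, near-marked and close calls, the series and each leukemia. Calls not analysed here are not covered by these counts.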

Additional observations from a re-analysis of the deposited data

Results flagged for a closer look

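In 3 cases a leukemia lay far from the others of its series. The median allele fraction of these C to T calls was 0.2 in M31, where the other plain mice had 0.027 to 0.054. It was 0.25 in M61, an NN mouse with 3 such calls. The protein-altering share was 0% in M53, where 0 of 3 calls altered a protein. Chance marks about 1 in 20 groups in this way, several measures were screened in each series, and M61 and M53 rest on 3 calls each.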

How the results depend on the processing

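The difference in C to T share between plain and NN mice ran from 30.2 to 34.9 points when each leukemia was left out, and was 5.30 points and no longer past the threshold among calls at 0.10 and above. In plain mice alone the tissue difference in C to T share was -4.77, the protein-altering difference from other changes 7.88 and that in median allele fraction -0.0385, now past the threshold. In NN mice alone the values were -0.45 for the number of calls between tissues, -1.43 for the C to T share, -4.17 for protein-altering calls below against above the boundary, and 0.0308 for the median allele fraction. With a boundary of 0.05 the tissue difference in low calls was 2.83, and a preceding guanine was 32.2 points more frequent below it, now past the threshold (p = 0.0312, 6 leukemias, exact sign-flip permutation test). With a boundary of 0.20 the protein-altering difference across it was -9.36. The protein-altering difference from other changes was 0.717 with at least 20 reads, 3.82 at 0.10 and above and 7.53 below, and the median allele fraction difference was 0.00168 with 1 call per 10 bases. The cause of these moves was not tested.

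Leaving out each leukemia gave -1.93 to 9.35 for the tissue difference in C to T share, 17.8 to 31.7 for the number of calls, -15.4 to -6.08 for low calls, 3.36 to 7.36 for the strand share above 50%, -1.52 to 1.18 for read orientation, -2.93 to 11.7 for protein-altering calls across the boundary, -2.45 to 3.36 for the protein-altering difference from other changes and -0.0138 to 0.00888 for the median allele fraction. Arginine and CpG shares had no value in NN mice, at a boundary of 0.20, or without M21 or M31. Neither the CpG nor the preceding guanine share had one with at least 20 reads, nor the latter at 0.20 or without M20 or M31. Calls with 3 to 5 alternative reads leave read shares imprecise, and calls against 1 wild-type mouse do not separate inherited from acquired changes.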
